A study of Saccharomyces cerevisiae with 7 samples.

Results

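Transcript levels in arp6Δ cells were set directly against those of wild-type cells on 4 dual-colour arrays, which were picked by their sample titles from the 7 arrays of the series. The other 3 arrays compare swr1Δ cells with wild type. The cells were budding yeast (Saccharomyces cerevisiae) of the W303 background in both channels, and the mutant carried a deletion of ARP6. Per the labels, both strains were grown in rich glucose medium (YPD) at 25 °C to an optical density of 1, with no treatment. The mutant RNA always carried Cy5 and the wild-type RNA always Cy3, so an effect of the dye and an effect of the deletion cannot be told apart. Each value is the log2 ratio of arp6Δ over wild type, and all tests asked whether the mean ratio over the 4 arrays differed from 0 (limma, Benjamini-Hochberg adjusted p under 0.05). Because the wild type appeared only as the second channel, its own spread is not in these tests, and because these are bulk cultures, fewer cells of a kind and less RNA per cell cannot be told apart.

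SWR-C is a chromatin remodelling complex that exchanges a canonical histone for the variant Htz1 in nucleosomes, many of them beside promoters. Swr1 is the ATPase that drives the exchange, and Arp6 is an actin-related protein that sits in the complex and helps it to hold nucleosomes. In fast-growing yeast much of transcription serves ribosomes, whereas cells that meet stress or run out of glucose express chaperones, storage carbohydrates and respiratory enzymes. Growth and stress programmes of this kind are known to run in opposite directions in many yeast mutants and conditions.

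The arrays fell into 2 pairs. Replicates 1 and 2 correlated at a Pearson r of 0.66 over 5730 features and replicates 3 and 4 at 0.83, whereas an array of one pair correlated with an array of the other at 0.26 to 0.36. These correlations run across genes, which are not independent replicates. Replicate 1 was the widest array, with 40.2% of its features beyond 2-fold, against 15.9% to 20.2% on the other 3. The array medians lay between −0.0059 and 0.0025. Each gene rests on 4 arrays at most, and their number limits the precision. Spot intensities were not used here.

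In part of the table the pairs did not match row by row. With the genes in the order of their systematic names, 4 stretches with 723 of 5358 measured genes (13.5%) matched between the pairs at a neighbouring row and not at the same row. Over the rows in register the pair means correlated at 0.42 at the same row. In the 3 stretches displaced by 1 row the correlation was 0.07 at the same row and 0.34 at the next, and in the stretch displaced by 2 rows it was −0.11 at the same row and 0.30 at 2 rows on. The stretches were picked for such a match in these same values. These correlations therefore describe the stretches and are not a test of the displacement. The stretches ran from YCR059C to YCR100C, from YDR506C to YGL089C, from YHR199C to YIL114C and, by 2 rows, from YIL115C to YJL008C. Within each pair, and between arp6Δ replicate 3 and swr1Δ replicate 1, no row was displaced.

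Ribosomal protein genes were read on each pair at their own row and at the rows before it. The 110 of them in register had medians of 1.02 on replicates 1-2 and 1.08 on replicates 3-4 at their own row. At the row before, the medians were 0.42 and 0.16. In the longest stretch the 9 ribosomal protein genes had a median of 1.34 on replicates 3-4 at their own row and −0.02 at the row before. On replicates 1-2 the median was 0.89 at their own row and 1.61 at the row before. RPS8B (YER102W), a small-subunit protein gene, is such a case. As listed it had −3.57 and −4.04 on replicates 1 and 2 but 1.30 and 1.46 on replicates 3 and 4, and with replicates 1-2 moved back by 1 row they read 2.90 and 2.06 (mean 1.93, adjusted p = 0.0282). In the stretch from YHR199C the 4 ribosomal protein genes had medians of 1.34 on replicates 3-4 and 0.35 on replicates 1-2 at their own row. At the row before, replicates 1-2 had 1.20. The stretch displaced by 2 rows held only 1 such gene. It had 1.20 on replicates 3-4 at its own row and 0.54 on replicates 1-2 at 2 rows before. Which pair stood beside its own names was not tested in any stretch, and the reading is least clear in this one. The ends of the stretches are uncertain, and single rows go against the move. LYS1 (YIR034C), an enzyme of lysine synthesis, had 4.97 and 5.44 on replicates 1 and 2 as listed and only 0.95 and 0.30 after the move, while LYS9, another gene of that pathway in register, had 5.15 and 3.45 there. Values below are as listed, and a gene inside a stretch is named as such with its moved value.

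**Figure D1:**
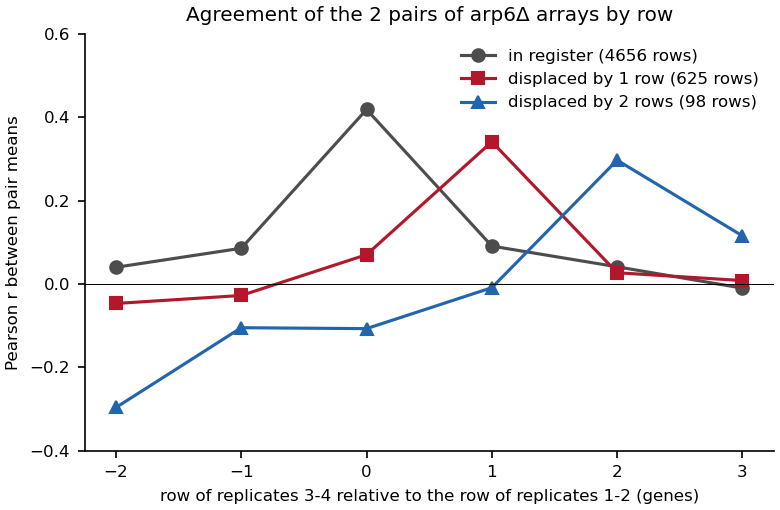
Pearson correlation (y axis, no unit) between the mean of replicates 1-2 and the mean of replicates 3-4 of arp6Δ, with replicates 3-4 read at a row shifted by −2 to 3 genes (x axis) in the order of systematic names. The rows in register peak at a shift of 0 with 0.42, those displaced by 1 row at a shift of 1 with 0.34 and those displaced by 2 rows at a shift of 2 with 0.30. The stretches were picked from the same values for a match at these shifts, so the peaks are not a test.

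The targeted gene was read first. ARP6 (YLR085C) stood at −1.28, −1.26, −1.19 and −0.63 on replicates 1 to 4. It was below wild type on each array and least so on replicate 4, with a mean of −1.09 ± 0.31 (SD, n = 4, adjusted p = 0.0455), or 2.13-fold lower. A ratio of this size leaves signal at the spot of the deleted gene, and the sources used here do not state whether the probe lies inside the deleted part. SWR1 (YDR334W), the ATPase gene, read 1.40, 1.52, 0.91 and 0.76. It rose on all 4 arrays, 2.21-fold on average (adjusted p = 0.0451). HTZ1 (YOL012C), which encodes the histone variant, read −0.57, −0.50, −0.30 and −0.28, below wild type on each array but not past the threshold (mean −0.41 ± 0.15, adjusted p = 0.225).

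None of the other 12 listed subunits was called. BDF1 (YLR399C), a bromodomain protein that binds acetylated histones, came nearest, with −1.44, −1.49, −0.86 and −0.27 (adjusted p = 0.0768). VPS71 (YML041C) and SWC3 (YAL011W) had low values on replicates 1 and 2 alone. VPS71 read −1.14 and −1.48 there against −0.05 and −0.10 on replicates 3 and 4, and SWC3 read −1.45 and −0.64 against 0.11 and 0.09. RVB1, a helicase subunit, averaged 0.57 ± 0.26, SWC4 0.51 ± 0.35, ACT1 0.26 ± 0.27, VPS72 0.14 ± 0.22, YAF9 0.05 ± 0.28 and RVB2 0.03 ± 0.19. SWC7 averaged −0.02 ± 0.67, ARP4 −0.15 ± 0.30 and SWC5 −0.21 ± 0.24, with adjusted p-values for these 9 of 0.143 to 0.968. ACT1 is an average over 12 probes and lies in a displaced stretch.

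**Figure D2:**
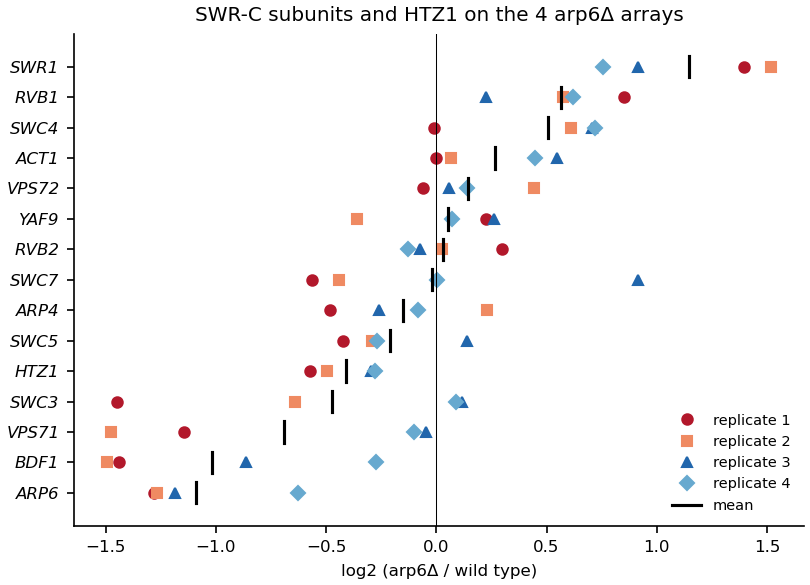
Log2 ratio of arp6Δ over wild type (x axis) for the subunits of SWR-C and HTZ1 (rows) on each of the 4 arrays (symbols), with the mean as a black bar. ARP6 is below 0 and SWR1 above 0 on all 4 arrays, and most other subunits scatter around 0.

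Across the genome the largest shifts were downward. Of 5732 features tested, 304 were called, which is 5.3%. Of these 120 were higher (2.09%) and 184 lower (3.21%), and all 304 had one sign on every array that measured them. Over all features tested 2313 had one sign (40.4%), and a call itself favours features whose arrays agree. The called sizes started at 0.95 on the log2 scale, with a median of 1.53. A feature was taken to move alike in the pairs when it was called and both the mean of replicates 1-2 and the mean of replicates 3-4 lay beyond 2-fold the same way. The 2 conditions held together for 92 features above wild type (1.61% of those tested) and 149 below (2.6%), 84 and 145 of them named genes. In the displaced stretches 19 of 648 features were called (2.93%), against 5.61% outside. After the move 44 of the 560 displaced features that could still be tested were called (7.86%). The stretches were picked for a match of the pairs at the moved row, so this rise is not a check of the move. Of the 19, 8 stayed called after the move, and some of the others, among them QCR6 and GUT2, could no longer be tested. The counts of called and alike features and of list members given here use the values as listed, and 13 of the alike features lie in displaced stretches. The calls rest on all 4 arrays being treated as independent: with the pairs as a random block 19 features were called, all of them lower. The count also fell when 1 array was left out. Without replicate 1, 2, 3 or 4 it was 69, 0, 5 or 3, beside 1618, 1465, 1306 and 1201 features at an unadjusted p under 0.05 (1685 with all 4). Those fits have 1 array fewer and still treat the arrays as independent. With 1 mean per pair limma called 0, beside 821 at an unadjusted p under 0.05.

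**Figure D3:**
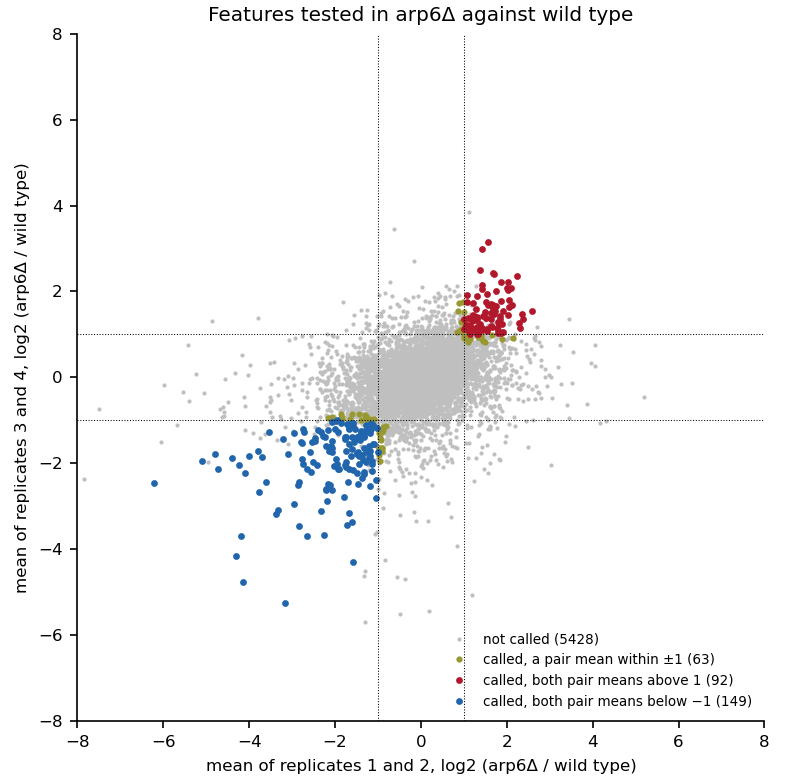
Each point is 1 of the 5732 features tested, with the mean log2 ratio of replicates 1 and 2 on the x axis and that of replicates 3 and 4 on the y axis, and dotted lines at 2-fold. Red points (92) and blue points (149) were called with both pair means beyond 2-fold the same way, and the blue ones reach further from 0, while olive points were called with a pair mean within 2-fold and grey points were not called.

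Many of the genes that rose encode the ribosome. Ribosomal proteins are made from duplicated and highly expressed genes that yeast regulates together, largely through Rap1, Ifh1 and Fhl1. In arp6Δ, 20 of 72 tested large-subunit genes and 11 of 51 small-subunit genes were called higher and none lower, against 2.09% higher over all features. The median ratio of the large-subunit list was 1.41, 0.55, 1.02 and 1.38 on replicates 1 to 4, and that of the small-subunit list 1.49, 0.60, 0.88 and 1.22, where the median of all features was 0.00 on each. Of the 123 ribosomal protein genes 92 were above wild type on all 4 arrays, where 40.4% of all features had one sign, either way, on every array. Replicate 2 gave the lowest median of both lists. With the pairs as a random block no feature was called higher, so none of these calls was made there.

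RPS22A (YJL190C) had 3.53, 0.95, 2.34 and 2.40. It rose 4.94-fold (mean 2.30 ± 1.06, adjusted p = 0.0383), with replicate 2 well under the others. RPP1B and RPP2B, which encode acidic proteins of the stalk that recruits elongation factors to the ribosome, were among the 15 highest genes. RPP1B (YDL130W) read 2.55, 1.53, 2.23 and 1.85, and RPP2B (YDR382W) 3.03, 0.98, 2.19 and 1.97. Both rose about as much as RPS27B (YHR021C), which read 2.41, 0.94, 2.51 and 2.36 (4.16-fold, adjusted p = 0.0329), and RPS8A (YBL072C), which averaged 2.05 ± 0.73. Of the other acidic stalk genes, chosen after their values were seen, RPP1A rose by 1.93 and RPP2A by 1.17. RPL9A, RPS31, RPL28, RPL13A, RPS28B and RPL42A rose by 1.92, 1.90, 1.85, 1.68, 1.68 and 1.62 on the log2 scale. RPS31 encodes ubiquitin fused to a ribosomal protein.

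RPL30 (YGL030W) and RPL23B (YER117W) lie in a displaced stretch. RPL30 averaged 2.06 as listed and 1.96 after the move (adjusted p = 0.0329 and 0.0397), and RPL23B averaged 1.87 and 2.11 (adjusted p = 0.0229 and 0.0309), so both stayed called. Many ribosomal protein genes have a near-identical copy, and how far the probes of such pairs cross-hybridise was not tested.

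Genes that build the ribosome followed to a smaller extent. The lists of the small-subunit processome, the 60S assembly factors and RNA polymerases I and III had medians of 0.79, 0.76 and 0.73, with 5 of 74 (6.76%), 11 of 81 (13.6%) and 2 of 31 genes (6.45%) called higher and none lower, against 2.09% higher over all features. MAK16 (YAL025C), a factor of 60S assembly, read 2.09, 1.72, 1.47 and 1.61 (mean 1.72 ± 0.27, adjusted p = 0.0232). PUF6 (YDR496C), an RNA-binding protein of the nucleolus, read 1.91, 2.78, 1.20 and 1.75, and REI1 (YBR267W), which acts in the last cytoplasmic steps of the 60S subunit, 1.55, 1.05, 1.83 and 1.94. Both stood above 2-fold on all 4 arrays. In the processome NAN1, UTP6 and RRP9 rose by 1.45, 1.31 and 1.28. The 2 called in the polymerase list were RPC10 and RPB8, small subunits shared by all 3 nuclear RNA polymerases, which rose by 1.70 and 1.32. The list of RNA polymerase II, Mediator and TFIID, which does not hold these shared subunits, had no call among 52 tested and a median of 0.02, and its largest mean was that of the Mediator subunit ROX3 (1.49, adjusted p = 0.0524).

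Among translation factors 4 of 42 were called, all higher (9.52%, against 2.09% over all features), with a list median of 0.61. TIF1 (YKR059W) and TIF2 (YJL138C) both encode the RNA helicase eIF4A. TIF1 read 2.75, 1.84, 1.22 and 1.31, and TIF2 read 2.86, 1.88, 1.29 and 1.44, so both genes gave nearly the same profile over the arrays. Their sequences are near-identical, and cross-hybridisation between them was not tested. STM1, a protein that holds ribosomes in reserve, rose by 1.18. GLN4 (YOR168W), the glutaminyl-tRNA synthetase gene, was the only one called of 22 synthetase genes (4.55%), with 2.79, 1.42, 2.44 and 1.70 (4.24-fold, adjusted p = 0.0282). The ribosomal protein gene RPS28A next to it in name order, looked up after the values of GLN4 were seen, averaged 0.14 ± 0.35, and whether the values of these neighbours are exchanged on all 4 arrays was not settled. On the swr1Δ arrays GLN4 averaged −0.40 and RPS28A 0.78. The rise above is that of the row listed as GLN4.

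Of 70 genes for mitochondrial ribosomal proteins 3 were called, all higher (4.29%, against 2.09% over all features). The list median was 0.37, and on replicate 1 it was −0.04. MRPL3, RSM26 and MRPL37 rose by 1.16, 0.99 and 0.96. Import of proteins into mitochondria had 4 of 34 called, all higher (11.8%). PAM18 (YLR008C), which drives the import motor, read 1.13, 1.27, 1.29 and 1.32, the most even profile among the named genes (SD 0.087), and TOM20, a receptor on the outer membrane, and TIM10, an intermembrane chaperone, rose by 1.10 and 1.07.

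The genes that fell furthest belonged to the general stress response, a set known to be induced through the factors Msn2 and Msn4 when cells stop growing. Of 100 tested, 45 were called lower and none higher, against 3.21% lower over all features. On all 4 arrays 74 were below wild type, where 40.4% of all features had one sign, either way, on every array. The list median was −1.62, −1.08, −1.68 and −1.43 on replicates 1 to 4, so it lay below 0 on every array, least on replicate 2. With the pairs as a random block 13 of the 19 calls were members of this list. As with all lists here, its members were chosen with earlier results of these data known. The counts therefore describe the list and are not a test of it.

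DDR2 (YOL052C-A), a gene known from DNA damage and many other stresses, read −4.95, −3.66, −4.30 and −4.01. EGO4 (YNR034W-A), a member of the same stress set, read −4.73, −3.54, −5.07 and −4.44, and FMP16 (YDR070C), which encodes a mitochondrial protein, −4.56, −3.81, −3.83 and −3.57. All 3 were far below wild type on each array, with means 18.8-fold, 21.8-fold and 15.3-fold lower, and shared an adjusted p of 0.00532. On the swr1Δ arrays their means were 0.63, 0.17 and 0.00, and the difference from arp6Δ was not tested. These were also called with the pairs as a random block (adjusted p = 0.0131 for each). CTT1 (YGR088W), the cytosolic catalase, fell as far on average (−4.34 ± 2.45, adjusted p = 0.0426), but its values of −7.61 and −4.83 on replicates 1 and 2 stood apart from −2.59 and −2.35 on replicates 3 and 4.

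Among chaperones 6 of 52 were called lower (11.5%) and 2 higher (3.85%), against 3.21% and 2.09% over all features, and the list median was −0.10, so the fall was not shared by the whole list. HSP26 (YBR072W), a small heat shock protein, read −3.30, −3.03, −5.17 and −5.34, lower on replicates 3 and 4 than on 1 and 2 (18.5-fold lower, adjusted p = 0.0195). HSP104 (YLL026W), the disaggregase that dissolves clumped protein, read −2.28, −2.14, −2.73 and −2.46, a narrow range (5.29-fold lower, adjusted p = 0.0152). SSE2, a nucleotide exchange factor for Hsp70, fell by 2.16, and HSP30, a stress-induced membrane protein gene, fell by 3.22 (adjusted p = 0.0152). Of 45 genes of redox defence 7 were lower (15.6%) and 1 higher, the lower ones including SOD2, the mitochondrial superoxide dismutase (−2.85, −2.21, −1.59 and −1.43), and GTO3, a glutathione transferase (mean −1.44, adjusted p = 0.047).

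Storage carbohydrate genes fell with them. Trehalose and glycogen are laid down when growth slows, and their synthesis starts from the product of phosphoglucomutase. Of 27 tested genes 9 were called lower (33.3%, against 3.21% over all features) and none higher, with list medians of −1.12, −0.79, −1.06 and −1.32 on the 4 arrays. The list shares 7 of these 9 with the stress list. PGM2 (YMR105C), the main phosphoglucomutase, read −3.96, −2.77, −3.01 and −3.35, beyond 4-fold on each array (9.67-fold lower, adjusted p = 0.00995). GPH1, which degrades glycogen, read −2.06, −1.13, −3.32 and −3.42, and GAC1, which targets a phosphatase to glycogen synthase, −4.07, −2.11, −1.87 and −1.69. These differed in which pair was lower, GPH1 on replicates 3-4 and GAC1 on replicates 1-2.

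Of 14 aquaporin and glycerol genes 7 were called lower, against 3.21% over all features. GPD1 (YDL022W), the first enzyme of glycerol synthesis and an early target of osmotic stress, read −3.56, −5.25, −2.14 and −1.64. The aquaporin genes AQY1 (−5.33, −2.67, −2.19 and −1.498) and AQY2 (−3.58, −1.93, −2.21 and −1.84) fell as well, with adjusted p-values of 0.047 and 0.0287. In all 3 genes replicate 4 was closest to wild type.

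Respiratory genes were lower. Of 54 genes of the respiratory chain and ATP synthase 14 were called, all lower (25.9%, against 3.21% over all features), and the list medians were −1.32, −0.48, −1.001 and −0.97. COX4 (YGL187C), a subunit of cytochrome c oxidase, read −2.80, −1.45, −2.61 and −2.39, with replicate 2 the least changed (4.96-fold lower, adjusted p = 0.0229). NDE2, an external NADH dehydrogenase, and CYB2, which feeds lactate into respiration, fell by 2.76 and 2.33, and both fell furthest on replicate 1. In the tricarboxylic acid and glyoxylate cycles 3 of 41 were called, all lower (7.32%). These were MDH2 (−1.85), MDH1 (−1.32) and SDH2 (−1.79), 2 malate dehydrogenases and a subunit of succinate dehydrogenase, and the list median was −0.72.

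Of 43 genes of glycolysis, fermentation and gluconeogenesis 4 were lower (9.30%) and 1 higher (2.33%), against 3.21% and 2.09% over all features, around a median of −0.06. GPM2 (YDL021W), a homologue of phosphoglycerate mutase, read −3.34, −2.32, −2.66 and −2.23 (adjusted p = 0.0152), ADH4 (YGL256W), an alcohol dehydrogenase, −0.71, −3.79, −3.99 and −3.35. Both were below wild type on each array, ADH4 least on replicate 1. ALD4, the mitochondrial aldehyde dehydrogenase, averaged −1.46. Among 25 genes for hexose transport and glucose sensing HXT4 (YHR092C), a high-affinity transporter, read −5.48, −1.75, −2.50 and −2.37 and HXT15 averaged −1.09 (adjusted p = 0.0436 and 0.047). Of 9 galactose genes PGM2 and GCY1 (−1.35) were called (22.2% lower), both also members of other lists, and the structural GAL genes were not.

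Autophagy and vacuolar hydrolases had 11 of 50 called lower (22.0%, against 3.21% over all features) and none higher, with a median of −0.91. ATG39 (YLR312C), a receptor for autophagy of the nucleus, read −2.27, −1.06, −3.53 and −2.77. ATG34 (YOL083W), a cargo receptor, and AMS1 (YGL156W), the vacuolar mannosidase that is its cargo, fell alike: ATG34 read −2.77, −1.38, −2.90 and −2.37 and AMS1 −3.18, −1.96, −2.45 and −1.98. Both were more than 2-fold lower on every array. Among regulators 4 of 43 were called lower (9.30%), including REG2 (−5.91, −3.53, −2.72 and −1.55), a regulatory subunit of the Glc7 phosphatase, TPK2 (−1.63), a catalytic subunit of protein kinase A, and USV1 (−1.61), a zinc finger factor. ECI1, an isomerase of fatty acid breakdown, fell by 2.40 (adjusted p = 0.047). It was the only gene called of 51 in the peroxisome list (1.96% lower, against 3.21% over all features).

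**Figure D4:**
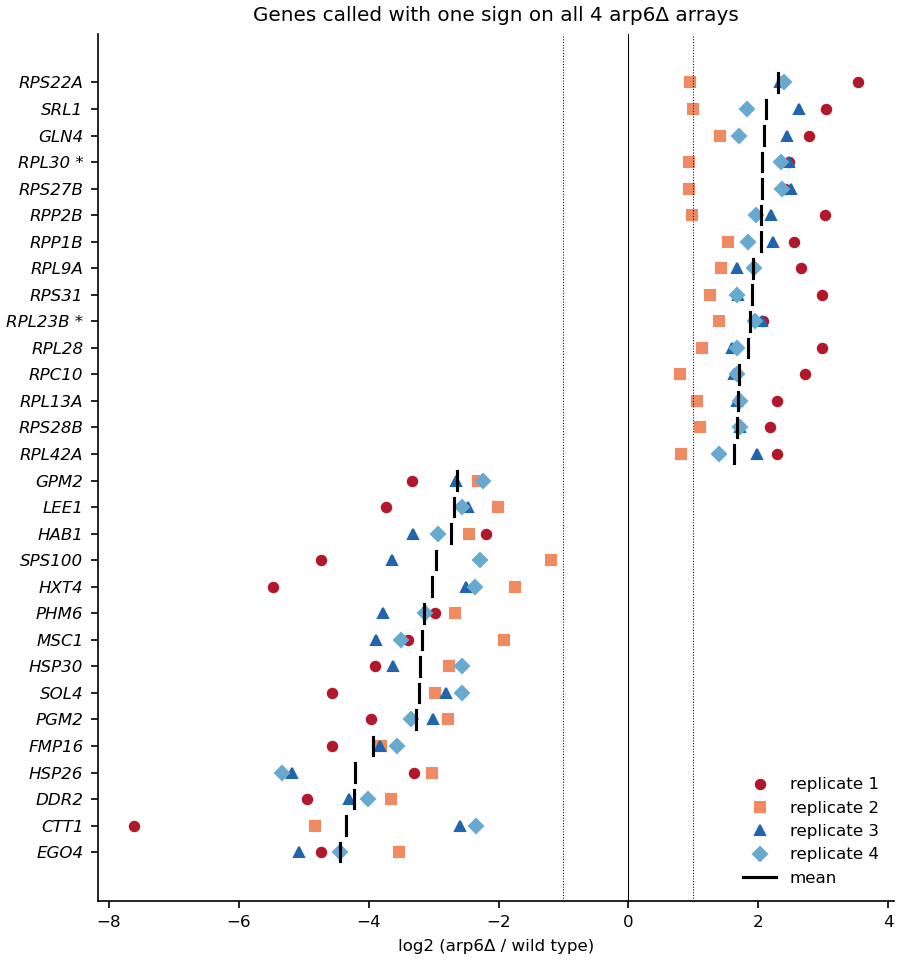
Log2 ratio of arp6Δ over wild type (x axis) on each of the 4 arrays (symbols) and their mean (black bar) for the 15 highest and 15 lowest called genes, ranked by the smaller of the pair means in size. Asterisks mark RPL30 and RPL23B, which lie in a displaced stretch, and dotted lines mark 2-fold. The genes that fell reach sizes of 4 and more, whereas those that rose average between 1.62 and 2.30.

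Other genes at the extremes had varied roles. SOL4 (YGR248W), a 6-phosphogluconolactonase, averaged −3.22 ± 0.91, MSC1 (YML128C), a gene of unclear role, −3.17 ± 0.86, and LEE1 (YPL054W), a zinc finger protein gene, −2.69 ± 0.74. HAB1 (YBR285W) read −2.19, −2.46, −3.32 and −2.93. SPS100 (YHR139C), a spore wall protein gene, had −4.73, −1.20, −3.64 and −2.28, the second array being far less changed than the first (adjusted p = 0.04). ZAP1 (YJL056C), the activator of zinc uptake genes, read −2.63, −2.21, −2.32 and −1.76. It was one of 2 called of 42 genes of metal uptake (4.76% lower, against 3.21% over all features), the other being the reductase FRE2 (−1.33). EMP46, a component of transport vesicles, fell by 1.98 and was the only gene called among 94 of the secretory pathway (1.06% lower, under the share over all features).

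Some mannoproteins of the cell wall were called. SRL1 (YOR247W), a mannoprotein, read 3.04, 0.99, 2.62 and 1.82 (4.35-fold higher, adjusted p = 0.0367), and TIP1 (YBR067C), a cold-shock mannoprotein, 2.39, 0.72, 3.53 and 2.76 (5.10-fold higher, adjusted p = 0.0408). Both were lowest on replicate 2. SED1, a wall protein of resting cells, rose by 1.09, while WSC4, named for a family of wall sensors, fell by 1.65. Over the TIR, TIP and DAN list 2 of 28 were called, both higher (7.14%, against 2.09% over all features), and its median was −0.06. Of the wall list 3 were higher and 3 lower among 78 (3.85% each, against 2.09% higher and 3.21% lower over all features), so these counts say little about the list.

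Calls among cell cycle genes were about as frequent as over all features or rarer. Of 75 genes of mitosis, spindle and kinetochore 1 was higher (1.33%, against 2.09%) and 2 lower (2.67%, against 3.21%). CDC28 (YBR160W), the cyclin-dependent kinase of the cell cycle, read 1.93, 1.14, 0.88 and 1.36, CLB1 (YGR108W), a mitotic cyclin, −1.29, −1.26, −1.15 and −1.06, and CTF19, a kinetochore protein, averaged −1.37 (adjusted p = 0.04997). SVS1, a G1/S target, rose by 1.73 (adjusted p = 0.0282). AXL2, a bud site marker in the stretch displaced by 2 rows, rose by 1.23 as listed and 1.63 after the move (adjusted p = 0.0383 and 0.034). Of 66 genes of DNA replication and G1/S, 1 was called higher (1.52%). In DNA repair none of 66 was called, and the largest mean was that of YKU80 (−1.15, adjusted p = 0.1).

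Apart from SWR-C with HTZ1, described above, the lists of chromatin and the nuclear pore had smaller shares of calls than the 5.3% over all features. Among 79 histone-modifying and silencing genes none was called (median −0.06), and 1 of 41 genes of other remodellers was, RSC30 (−1.07, adjusted p = 0.044), a subunit of RSC. Of 9 histone genes none was called, HHF1 coming nearest with 2.89, 0.66, 1.24 and 1.33 (adjusted p = 0.0641). In the list of the nuclear pore and transport, NUP60 (YAR002W), a protein of the pore basket, read 1.31, 0.999, 0.87 and 0.93 (2.04-fold higher, adjusted p = 0.0447), and GSP2, a Ran GTPase, read −1.21, −0.98, −1.03 and −0.90 (2.05-fold lower, adjusted p = 0.0423). These 2 were the only calls among 57 (1.75% each way). Splicing and the proteasome had no call among 62 and 46 genes, with medians of 0.02 and 0.03. Their largest means were those of PRP43 (1.42, adjusted p = 0.1) and of RPN14 (−1.01, adjusted p = 0.0657). RPN14 lies in a displaced stretch and averaged −0.36 after the move.

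Lists for the synthesis of small molecules had unlike medians in the pairs. Genes of vitamin synthesis and transport had medians of 1.40 and 1.30 on replicates 1 and 2 but 0.29 and 0.19 on replicates 3 and 4. Purine synthesis had 0.81 and 0.60 against 0.03 and 0.05, and amino acid synthesis 0.56 and 0.60 against −0.19 and −0.05. The phosphate genes went the other way, with −0.34 and −0.05 on replicates 1 and 2 against −1.65 and −1.66 on replicates 3 and 4. These list medians are descriptions of single arrays and the difference between the pairs was not tested.

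**Figure D5:**
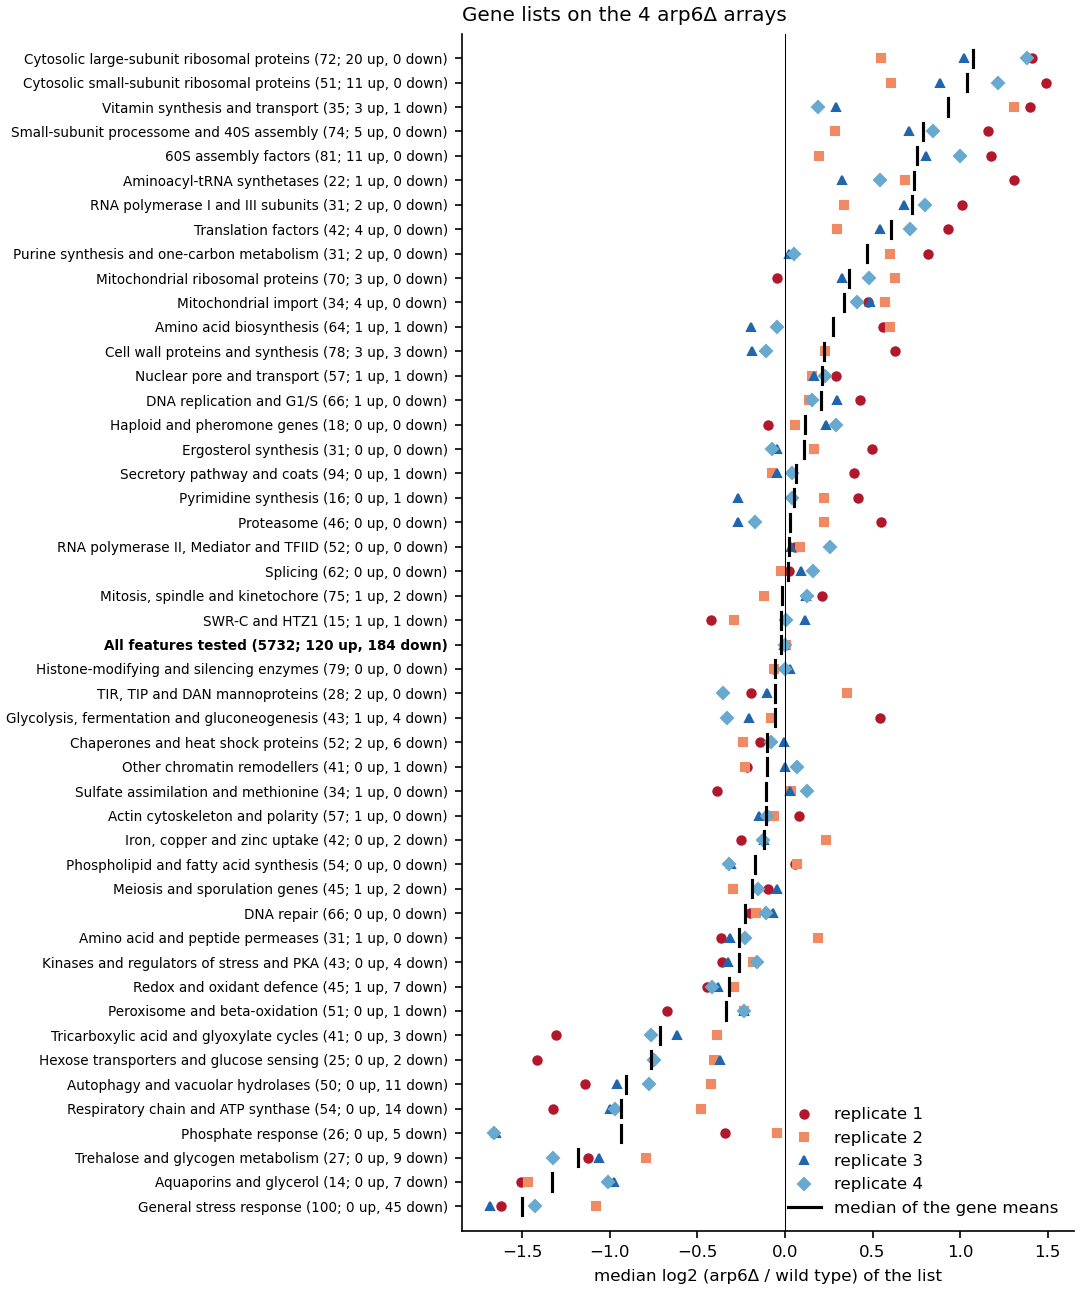
Median log2 ratio of arp6Δ over wild type (x axis) of each gene list with at least 10 tested genes (rows; in brackets the tested members and the members called up and down) on each of the 4 arrays (symbols), with the median of the gene means as a black bar. The lists of cytosolic ribosomal proteins lie above 0 and the stress list below 0 on all 4 arrays, while the vitamin and phosphate lists split between replicates 1-2 and replicates 3-4.

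Some members of these lists were nevertheless called. SNZ2, a pyridoxine gene, and THI7, the thiamine transporter, rose by 1.54 and 1.36, while BIO2, the biotin synthase, fell by 1.55. PHM6 (YDR281C), a phosphate-regulated gene, read −2.98, −2.68, −3.78 and −3.14 and the vacuolar phosphatase PHO8 −2.07, −1.32, −2.53 and −2.35, so both were low in each pair (adjusted p = 0.00995 and 0.0236). Of 64 amino acid genes ARG3 rose (1.16) and the aminotransferase ARO9 fell (−1.35), which is 1.56% each way, against 2.09% higher and 3.21% lower over all features. CYS3, which makes cysteine, the transporter TAT1, and GUA1 and PRS1, both of purine synthesis, rose by 1.495, 1.36, 1.34 and 1.02, and URA10, a minor pyrimidine enzyme, fell by 1.92. In sterol and in phospholipid and fatty acid synthesis none of 31 and 54 was called, and ERG2 (2.43, 1.79, 0.28 and 0.08) and ELO3 (mean 1.77, adjusted p = 0.0828) had the largest means.

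Genes that differed between the pairs were counted as well. Of the features tested 351 had both pair means beyond 2-fold in one direction and 57 in opposite directions, 38 of these above wild type on replicates 1-2 and below it on replicates 3-4. A further 436 were beyond 2-fold on replicates 1-2 and within 0.3 of 0 on replicates 3-4, and 130 the reverse. MEP2 (YNL142W), the high-affinity ammonium transporter, read 0.12 and 0.27 on replicates 1 and 2 but −5.55 and −5.34 on replicates 3 and 4. ZPS1 (YOL154W), a gene known from low zinc, read 1.65 and 0.74 against −5.87 and −4.25. Both were close to or above wild type in one pair and among the lowest in the other.

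LYS9 (YNR050C) and LYS1, of lysine synthesis, and AAD10 (YJR155W), an aryl-alcohol dehydrogenase, were high on replicates 1 and 2 alone. LYS9 read −1.14 and −0.89 on replicates 3 and 4, LYS1 −0.33 and −0.58, and AAD10 had 6.97 and 1.36 on replicates 1 and 2 against −1.30 and −0.82. In the other direction CDC13 (YDL220C), which caps telomeres, read −7.37 and −4.59 against 0.10 and −0.45, PDC6, a minor pyruvate decarboxylase, −8.49 and −2.34 against 0.79 and 0.69, BSC1 −2.15 and −7.60 against 2.07 and 0.54, and ERC1 −5.44 and −2.88 against 0.78 and 0.28. RPS8B, described above, has the same form before the move. None of these genes was called. In 452 genes each array of one pair was beyond 2-fold while the mean of the other pair had the other sign or was within 0.3 of 0. Of these 452, 104 lay in displaced stretches, which hold 723 of 5358 measured genes (13.5%). The stretches were found where the pairs did not match at the same row, so more such genes there follow from how they were found.

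Of 5 MATa-specific genes none was called, and MFA2, a pheromone gene, read 1.97, 0.42, 0.28 and −0.07. Of 4 MATα-specific genes STE3 (YKL178C), the receptor for a-factor, read −1.73, −0.54, −2.11 and −1.81 (adjusted p = 0.0427) and the others were not called, and of 18 haploid and pheromone genes none was, the largest mean being that of STE12 (−1.90, −3.50, 0.17 and 0.38). Of 45 meiotic genes SSP1 and SPS100 were lower and SPO77 higher (−1.80, −2.96 and 1.01), which is 4.44% lower and 2.22% higher, against 3.21% and 2.09% over all features. A ratio says only whether the strains differ, not whether a marker is present.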

How the data were processed

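RNA of arp6Δ cells (Cy5) and wild-type cells (Cy3) was compared on 4 spotted arrays, and the groups were taken from the sample titles. The labels give 25 °C and hot phenol extraction, which differ from the study's methods, and the labels were followed. The authors deposited log2 ratios of mutant over wild type per probe, and the sources used here name no scanner, background correction or normalization. Per the study's methods, arrays were made from 3 or more separate cultures, and which of the 4 arrays, if any, share a culture is not stated. Among 6912 probes, 967 were empty throughout. The platform annotation gave 1 symbol for 5446 probes, several for 0 and none for 1466, and symbols were updated from a RefSeq gene table used for names only.

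Probes of a gene were averaged, and 5732 features measured on at least 3 arrays (5202 named genes and 530 unnamed probes) were tested with limma 3.58.1 in R 4.3.3 (lmFit and eBayes, mean ratio against 0, two-sided, Benjamini-Hochberg over all features). Python 3.11.15, pandas 2.3.3 and matplotlib 3.10.9 were used for tables and figures, and the fits were tested on simulated data. Rows were ordered by systematic name, and stretches in which the pairs matched at another row were found by comparing offsets of up to 4 rows. Moving replicates 1-2 back recovered values for 609 of 723 genes. The named genes are the 15 highest and 15 lowest called genes with one sign on every array, ranked by the smaller pair mean in size, up to 3 called members of each of 52 lists (or the largest where none was called), SWR-C with HTZ1, and the 5 genes with the largest difference between pairs each way. The members and lists were chosen with earlier results of these data known. Alternatives were another scale, centring, filter, variance moderation, block and set of arrays, array weights, and the methods' t-test at an unadjusted p under 0.05 with a 1.25-fold limit. Promoter motifs were not examined.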

Additional observations from a re-analysis of the deposited data

Results flagged for a closer look

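Of 136 named genes checked, 6 had 1 array far from the other 3. Chance alone picks about 1 in 20 groups of independent values, so the count is no larger than chance would give. Many of the 136 were picked as called genes, which have one sign on every array, and the arrays correlate in pairs. The rate is therefore only a rough guide. ARP6 read −0.63 on replicate 4 and −1.28 to −1.19 on the others, so the targeted gene was nearest to wild type there. The ribosomal protein genes RPL30 and RPS27B read 0.93 and 0.94 on replicate 2, against 2.35 to 2.47 and 2.36 to 2.51 on the others. RPL30 lies in a displaced stretch. SWC4, a subunit of SWR-C, read −0.0091 on replicate 1 and 0.61 to 0.72 elsewhere. YKU80, of DNA end joining, and PHO23, of a histone deacetylase complex, read −2.49 and −3.54 on replicate 1, against −0.81 to −0.60 and −0.59 to −0.43. Replicate 1 was the odd array in 3 genes, replicate 2 in 2 and replicate 4 in 1.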

How the results depend on the processing

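The count of 304 called features (120 higher, 184 lower) depended on how the arrays were treated. It was 19 (0 higher, 19 lower) with the pairs as a random block, 757 (346 and 411) with the arrays scaled to one spread, 746 (344 and 402) after quantile normalization, 2218 (1066 and 1152) with array weights, 424 (172 and 252) on replicates 1-2 alone, 2476 (1169 and 1307) on replicates 3-4 alone and 1503 (736 and 767) with all 7 arrays in one fit. Of the 304, 122 were also called on replicates 1-2 alone and 304 on replicates 3-4 alone. These fits reuse arrays of the main fit, so the overlaps are not an independent check. The fit on replicates 3-4 called 2476 of 5882 features tested, and that on replicates 1-2 called 424 of 5730. Without 1 replicate it ranged between 0 and 69 (0 to 9 higher and 0 to 60 lower). With the pair means as 2 values limma called 0 (0 higher and 0 lower), beside 821 at an unadjusted p under 0.05. The methods' t-test called 1224 (618 and 606), and 0 after Benjamini-Hochberg, beside 1272 at an unadjusted p under 0.05. With displaced values moved back and a random block, an alternative chosen after seeing the data, the count was 22 (0 and 22). The 241 features alike in the pairs became 35 at 4-fold and 159 with all 4 arrays beyond 2-fold and no test. Of the named genes none that was called changed sign. On replicates 3-4 alone 11 others did, of which AAD10 (−1.06), LYS9 (−1.01), BSC1 (1.31), PDC6 (0.74), RPS8B (1.38) and ERC1 (0.53) passed the threshold there, and LYS1 (−0.45), STE12 (0.28), SWC3 (0.10), SWC7 (0.46) and RVB2 (−0.10) did not. On replicates 1-2 alone ZPS1 (1.20), MEP2 (0.19) and YAF9 (−0.07) changed sign, none past the threshold. RPS8B also changed sign after the move (1.93). Array weights turned 8 of the genes not called and each other setting at most 4, none past the threshold. The causes were not tested. No paired analysis was possible because the 4 arrays form 1 group, so no other group shares their replicate numbers in the test. The ratio on each array already sets mutant against the wild type hybridised with it. Promoter motifs were not run.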
